A study of Mus musculus with 24 samples.

Results

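The comparison was between wt day 3 and wt day 2.5, the last step of a differentiation of mouse embryonic stem cells (mESCs) towards neuromesodermal progenitors (NMPs), and all genes were considered. Its members were the 6 libraries that the labels name as wt day 2.5 and wt day 3, out of 24 in the series, and 15292 of 35591 genes in the count table had enough counts to be tested. The 3 wt lines were male, carried the floxed, undeleted Smchd1[fl/+] genotype, and came from a Castaneus mother and a C57BL/6 father of a colony with MMTV-Cre, a Cre transgene that is active in the oocyte. Whether a line carried the transgene is not given in the sources used here. Cells were in DMEM with LIF at day 0, were then held in N2B27 with FGF until day 2, and then received CHIR99021, an inhibitor of GSK3 that activates Wnt signalling, in N2B27 with bFGF. The day 2.5 and day 3 libraries were thus both made during CHIR99021 treatment, with no other agent added between them. The 3 het lines (Smchd1[del/+], with the deleted allele from the father) were treated alike and are set beside the wt lines where stated. Each line was sampled at both days, so n is 3 lines per day throughout, and p-values measure the spread between these lines.

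NMPs are a posterior cell population that feeds both the spinal cord and the paraxial mesoderm, the tissue that forms somites. Wnt and FGF signals hold them in the tail bud, and Cdx homeobox factors act downstream of Wnt to open the Hox clusters, whose genes are switched on in order from group 1 towards group 13 and set position along the body axis. The step from day 2.5 to day 3 addresses which genes still change once Wnt signalling has already been active since day 2.

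Library totals were 18.0, 7.10 and 16.7 M counts (M, mega) in lines 1 to 3 at day 2.5 and 20.8, 16.0 and 16.3 M counts at day 3. The day 2.5 library of line 2 was the smallest of the series. The floor of 3 counts equals 0.138 to 0.414 CPM (counts per M counts) in these libraries. Levels are TMM-scaled CPM in the order line 1, line 2 and line 3, where TMM is edgeR's correction for library composition. The log2 fold change of day 3 over day 2.5 is written log2FC, and the value after ± is its standard error. Adjusted p comes from the edgeR quasi-likelihood test with Benjamini-Hochberg adjustment over all genes tested. The defining NMP markers summed to 647 to 1259 CPM at day 2.5 and 506 to 750.0 CPM at day 3, and all 7 were above the floor in every library. Markers of neural crest and surface ectoderm summed to at most 1.65 CPM at day 2.5 and 0.609 CPM at day 3. Because these are bulk libraries, a change in the share of cells of a type and a change in RNA per cell cannot be told apart.

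Between day 2.5 and day 3, 2923 of 15292 genes (19.1%) differed, 1374 higher at day 3 (8.99%) and 1549 lower (10.1%). A fold of at least 2 was reached by 713 genes (4.66%), 371 of the higher genes (2.43% of those tested) and 342 of the lower (2.24%). With the line as a block, which pairs the days of 1 line, the count was 4687 (30.7%), with 2336 higher (15.3%) and 2351 lower (15.4%). The levels of the days did not overlap for 5957 genes (39%). The count was 1574 without day 2.5 of line 2, 1352 without day 3 of line 2 and 1281 without day 3 of line 3, and none of the 2923 genes changed direction in any of the 6 fits that left out a library. The lack of reversals was favoured in advance, since the genes were called on these same libraries. Across genes, log2 fold change had a Spearman correlation of -0.25 with the GC content of the longest transcript, and of -0.11 without day 2.5 of line 1. The median GC content was 45.4% in the higher genes and 52.4% in the lower. The same correlation was -0.06 in the het lines. Its part in the results was not tested beyond a fit with GC offsets, which called 2955 genes, 2329 of them among the 2923 (79.7%). Log2 fold change also had a Spearman correlation with transcript length, of 0.19 in wt, 0.14 in wt with GC offsets and 0.18 in het. The median length was 4618.5 bases in the higher genes, 2796 in the lower and 3188 in all. The part of length in the results was not tested.

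**Figure D1:**
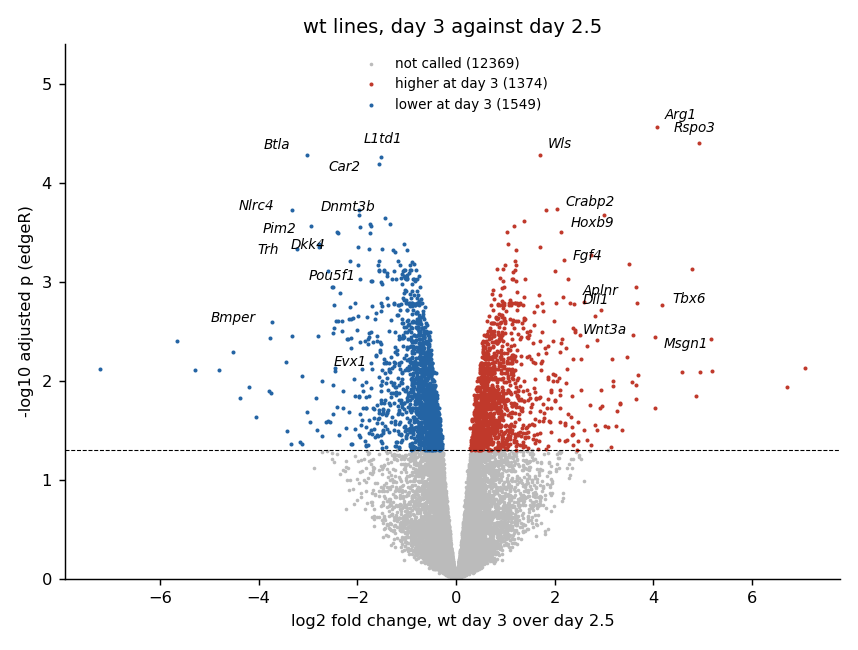
Volcano plot of the wt step, with the log2 fold change of day 3 over day 2.5 on the x axis and -log10 of the adjusted p on the y axis. Each point is a gene, the dashed line marks an adjusted p of 0.05, and the 1374 higher and 1549 lower genes lie above it, led by Arg1 and Rspo3 on the right and Btla and L1td1 on the left.

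Where the days did not overlap and a day averaged 50 counts or more, the steepest rises included genes known from early mesoderm, beside genes of other roles. Wls, Crabp2 and Vwa5a are also given here, chosen for a small adjusted p and not for fold. Rspo3, a secreted amplifier of Wnt signalling (chr10:29452416-29535867, GRCm38.p6), read 0.660, 0.414 and 0.824 CPM at day 2.5 and 24.7, 20.4 and 16.6 CPM at day 3. All 3 lines were near the floor at day 2.5 and above 16 CPM at day 3, a fold of 30.4 (log2FC 4.93 ± 0.30, adjusted p = 4.0e-05). Aplnr, the apelin receptor of early mesoderm, read 1.65, 0 and 1.12 CPM at day 2.5 and 15.3, 14.5 and 11 CPM at day 3, with no count in line 2 at day 2.5 (log2FC 3.67 ± 0.50, adjusted p = 0.0016). Arg1, arginase 1, which splits arginine into urea and ornithine, read 1.92, 2.07 and 1.35 CPM at day 2.5 and 32.7, 28.4 and 27.4 CPM at day 3. It had the smallest adjusted p of all genes (log2FC 4.08 ± 0.23, adjusted p = 2.7e-05), and its lines lay close together at day 3. Wls, the carrier protein that Wnt ligands need for secretion, read 39.1, 44.6 and 41.0 CPM at day 2.5 and 145, 129 and 131 CPM at day 3, which was a 3.27-fold rise with little spread (log2FC 1.71 ± 0.11, adjusted p = 5.2e-05). Crabp2, which carries retinoic acid to its nuclear receptors, read 18.6, 20.3 and 13.6 CPM at day 2.5 and 77.3, 66.1 and 70.6 CPM at day 3 (log2FC 2.05 ± 0.16, adjusted p = 0.00019). Vwa5a rose from 11.1, 9.80 and 11.8 to 41.1, 35.2 and 40.1 CPM (log2FC 1.83 ± 0.15, adjusted p = 0.00019). Kif26b, a kinesin family member, rose from 0.825, 0.138 and 0.471 to 8.17, 7.40 and 4.87 CPM (log2FC 3.65 ± 0.46, adjusted p = 0.0011), and Rhbdl3, a rhomboid family gene, from 0.495, 0.690 and 0.0589 to 4.87, 4.81 and 3.72 CPM (3.58 ± 0.59, adjusted p = 0.0035). Avpr1b, a vasopressin receptor, rose from 5 counts over the 3 day 2.5 libraries to 3.26, 3.55 and 3.47 CPM (log2FC 4.77 ± 0.54, adjusted p = 0.00075), and the unannotated gene Gm42372 went from 0.495, 0 and 0.0589 to 2.43, 4.09 and 2.25 CPM (3.68 ± 0.76, adjusted p = 0.0087). 

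Under the same limits, the steepest falls were in genes of varied roles. Car2 is also given here, chosen for its small adjusted p and not for its fold. Bmper, a secreted regulator of BMP signalling, read 6.6, 13.8 and 17.3 CPM at day 2.5 and 0.505, 0.361 and 2.01 CPM at day 3 (log2FC -3.73 ± 0.57, adjusted p = 0.0026). Trh, the precursor of thyrotropin-releasing hormone, read 307, 224 and 119 CPM at day 2.5 and 26.8, 14.4 and 28.2 CPM at day 3. All lines lost most of their Trh signal, though line 3 started lowest (log2FC -3.22 ± 0.33, adjusted p = 0.00047). Nlrc4, an inflammasome component, fell from 17.4, 17.4 and 15.1 to 1.15, 2.05 and 1.83 CPM (log2FC -3.31 ± 0.27, adjusted p = 0.00019). Btla, an immunoglobulin family receptor, fell from 58.0, 53 and 44.0 to 7.35, 4.51 and 7.07 CPM (log2FC -3.02 ± 0.20, adjusted p = 5.2e-05). Pim2, a serine/threonine kinase, fell from 300.4, 260.0 and 217 to 23.7, 25.4 and 52.2 CPM (log2FC -2.94 ± 0.27, adjusted p = 0.00027), and line 3 kept more of it than the other two. Car2, carbonic anhydrase 2, fell 2.96-fold from 195, 170.1 and 156 to 58.0, 60.1 and 57.1 CPM, and its lines lay close together at day 3 (log2FC -1.56 ± 0.11, adjusted p = 6.4e-05). Sidt1, Glyatl3, Gm4969, Serpina3m and Cyp2b23 were the other steep falls, with log2FCs of -3.45 ± 0.66, -3.32 ± 0.55, -2.80 ± 0.47, -2.78 ± 0.28 and -2.78 ± 0.28. Gm45837, which also had 1 of the smallest adjusted p values among falls, shares exons with Arap1 and Pde2a on the same strand, and only 2.56% of the 75-base stretches of its longest transcript were its own, so its count is uncertain.

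Of 16 genes tested that define the caudal epiblast and NMPs, 5 were higher and 5 lower, where 8.99% of all genes were higher and 10.1% lower, with a median log2FC of -0.18 (all genes 0.00294). T, the T-box factor brachyury (chr17:8434423-8442496), read 451, 274 and 187 CPM at day 2.5 and 238, 182 and 159 CPM at day 3. It was lower at day 3 in every line, but the days overlapped, since line 1 at day 3 stood above line 3 at day 2.5 (log2FC -0.65 ± 0.26, adjusted p = 0.10), and the fall passed with the line as a block (-0.58 ± 0.11, adjusted p = 0.00096) and without day 2.5 of line 3 (-0.91, adjusted p = 0.016). The fall of T also passed with no filter beyond 1 count (-0.66, adjusted p = 0.0011) and in the other fits with the line as block. With GC offsets alone it did not pass (-0.55, adjusted p = 0.13). Among the Cdx genes, Cdx1 fell from 311, 221 and 159.7 to 142, 78.4 and 71.8 CPM (log2FC -1.24 ± 0.27, adjusted p = 0.011). Cdx4 rose from 52.5, 42.9 and 30.9 to 113, 92.6 and 58.3 CPM (log2FC 1.07 ± 0.24, adjusted p = 0.013). Cdx2 read 177, 144 and 107 CPM at day 2.5 and 153, 119 and 101 CPM at day 3 and did not pass (log2FC -0.19 ± 0.19, adjusted p = 0.50). In each of these genes line 1 was highest and line 3 lowest at both days. Nkx1-2, a homeobox marker of the caudal lateral epiblast, fell from 260.1, 198 and 146 to 131, 93.3 and 100.0 CPM (log2FC -0.89 ± 0.19, adjusted p = 0.010). Evx1, a homeobox gene of the posterior streak, fell from 44.4, 27.5 and 19.6 to 13.8, 9.99 and 9.20 CPM (log2FC -1.46 ± 0.28, adjusted p = 0.0066). Wnt3a and Fgf8, signals of the same region, rose. Wnt3a went from 6.71, 3.04 and 1.94 to 24.7, 20.8 and 16.3 CPM (log2FC 2.38 ± 0.38, adjusted p = 0.0030). Fgf8 rose from 11.5, 3.31 and 3.00 to 29.7, 21.5 and 18.5 CPM (log2FC 1.93 ± 0.43, adjusted p = 0.012). Greb1 rose from 33.3, 25.1 and 22.8 to 75.1, 79.4 and 52.8 CPM (log2FC 1.35 ± 0.19, adjusted p = 0.0017). Cyp26a1, which breaks down retinoic acid, read 16.1, 32.2 and 40.2 CPM at day 2.5 and 27.1, 36.8 and 44.7 CPM at day 3 and did not pass (log2FC 0.30 ± 0.29, adjusted p = 0.51), though it passed with GC offsets and the line as block (0.49, adjusted p = 0.018). The call was lost, with the highest adjusted p in parentheses, without day 3 of line 2 or 3 for Cdx1 (0.057) and Nkx1-2 (0.055), without day 2.5 of line 2 or day 3 of line 2 for Cdx4 (0.053), and without day 2.5 of line 2 for Fgf8 (0.055). The higher count was 2 without day 2.5 of line 2 and 3 without day 3 of line 2, and the lower count was 1 without day 3 of line 3 and 2 without day 3 of line 2.

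**Figure D2:**
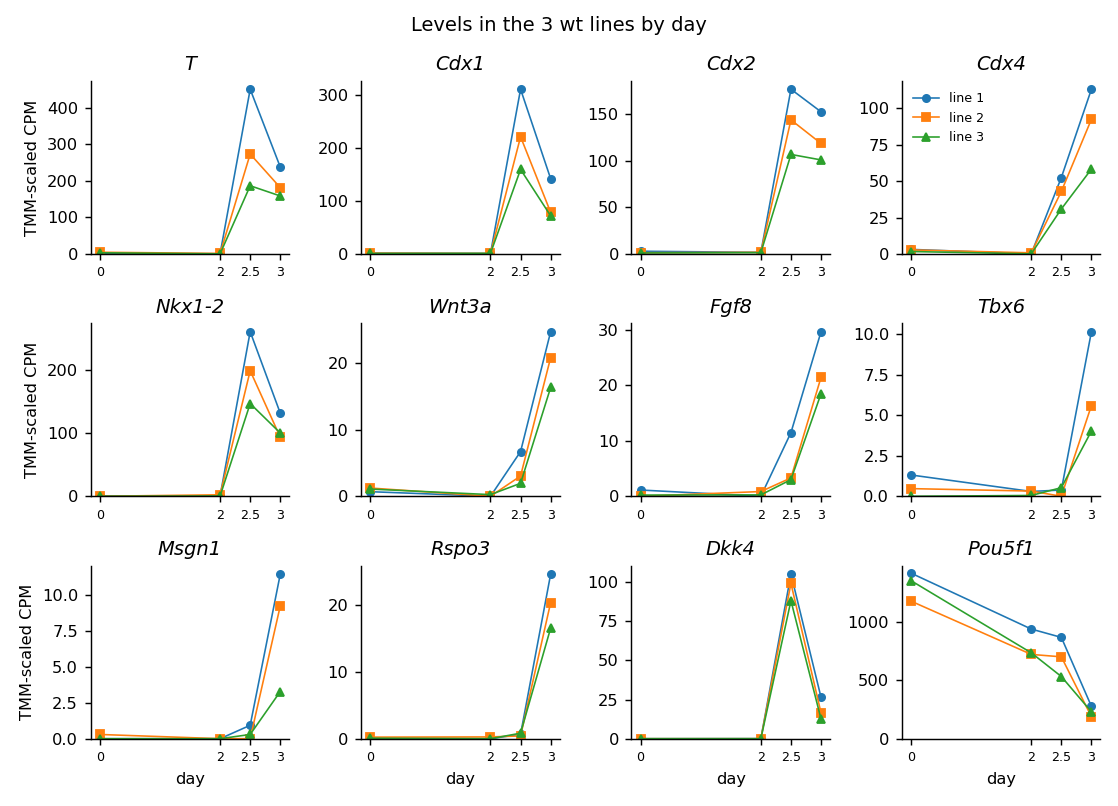
TMM-scaled CPM (y axes, from 0) of 12 genes by day (x axes), with 1 line and symbol for each wt line. T, Cdx1, Nkx1-2 and Dkk4 peak at day 2.5, Wnt3a, Fgf8, Tbx6, Msgn1 and Rspo3 are near 0 until day 2.5 or rise mainly after it, Cdx4 goes on rising, and Pou5f1 is lowest at day 3 in each line.

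Of the 20 paraxial mesoderm genes listed, 13 were tested, 5 were higher and 0 lower (0 by DESeq2 and 0 at an unadjusted p under 0.05), with a median log2FC of 1.27, and 8.99% of all genes were called higher. The 5 were Rspo3, Tbx6, Msgn1, Dll1 and Dll3. Tbx6, the T-box factor that commits NMPs to paraxial mesoderm (chr7:126781483-126785560), read 0.385, 0 and 0.530 CPM at day 2.5 and 10.1, 5.6 and 4.02 CPM at day 3 (log2FC 4.17 ± 0.59, adjusted p = 0.0017). Msgn1, a basic helix-loop-helix factor of the presomitic mesoderm (chr12:11208360-11208972), read 0.935, 0 and 0.294 CPM at day 2.5 and 11.5, 9.27 and 3.29 CPM at day 3 (log2FC 4.03 ± 0.67, adjusted p = 0.0036). Line 3 had the lowest day 3 level of both, and in line 2 neither had a count at day 2.5. Tbx6 and Msgn1 entered the test through their day 3 counts and could hardly have been called lower. Dll1, a Notch ligand, rose from 6.32, 3.59 and 2.94 to 29.5, 24.1 and 14.6 CPM (log2FC 2.39 ± 0.33, adjusted p = 0.0017). Dll3, another member of that family, rose from 7.75, 4.56 and 4.18 to 17.2, 12.1 and 10.6 CPM (log2FC 1.27 ± 0.29, adjusted p = 0.014). The list's other 8 tested members did not pass, and 7, among them the later somite markers Meox1 and Uncx, had too few counts to test. Calls were lost (highest adjusted p given) without day 2.5 of line 2 or day 3 of line 1 for Dll3 (0.059).

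Of 12 primitive streak genes tested, 0 were higher by edgeR (0 by DESeq2 and 0 at an unadjusted p under 0.05) and 5 lower (2 higher and 7 lower with the line as block), with a median log2FC of -1.0, against 10.1% of all genes called lower. Eomes, a T-box factor of the streak, fell from 18.3, 17.5 and 14.2 to 4.64, 5.6 and 5.0 CPM (log2FC -1.71 ± 0.21, adjusted p = 0.00098). Fgf5, an epiblast growth factor, fell from 3.57, 3.04 and 2.71 to 0.918, 0.120 and 0.670 CPM (log2FC -2.40 ± 0.59, adjusted p = 0.018). Lefty2, an inhibitor of Nodal, fell from 26.2, 14.5 and 12.5 to 9.14, 5.05 and 10.8 CPM (log2FC -1.09 ± 0.33, adjusted p = 0.040), and the list also holds Evx1, described above. A loss of the call (highest adjusted p given) was seen without day 2.5 of line 1 or 2 or day 3 of line 3 for Fgf5 (0.060), without day 2.5 of line 1 or 2 or day 3 of any line for Lefty2 (0.13), and with counts thinned to the smallest total for Lefty2 (0.060). The lower count was 2 without day 2.5 of line 1 or day 3 of line 3 and 3 without day 2.5 of line 2 or day 3 of line 2. The 4 streak markers fixed for the cell type check summed to 28.1 to 51.6 CPM at day 2.5 and 10.9 to 15.7 CPM at day 3, with Mesp1 at 0 counts in all 6 libraries.

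Of the 26 Hox genes tested in groups 1 to 9, 13 were higher at day 3 and 1 was lower, where 8.99% of all genes were higher. Of the group 5 to 9 genes, 8 of 14 tested were higher and 0 lower (0 by DESeq2 and 0 at an unadjusted p under 0.05, median log2FC 1.35), and of the group 1 to 4 genes 5 of 12 were higher and 1 lower (median 0.96). Members with few counts at day 2.5, such as Hoxc6 (5, 4 and 13) and Hoxd3 (3, 3 and 3), entered the test through day 3. They could hardly have been called lower, so the counts of lower genes are partly set by the filter. Of the group 10 to 13 genes 4 of 12 had enough counts to test and 0 were higher (0 by DESeq2 and 1 at an unadjusted p under 0.05) or lower (0 by DESeq2 and 0 at an unadjusted p under 0.05). With the line as block 1 of the 4, Hoxc13, named after its values were seen, was higher (log2FC 1.33, adjusted p = 0.041). In the deposited log2 RPKM (read counts scaled by transcript length and library size, a scale on which genes can be compared), the mean over the 27 genes of groups 1 to 9 was 0.07, 0.21 and -0.51 at day 2.5 and 1.35, 1.37 and 0.83 at day 3 in lines 1 to 3. The mean rose in 3 of 3 lines by 1.26 ± 0.09 (SD of the line differences), and line 3 was lowest at both days. The rise was 1.47 ± 0.05 for groups 5 to 9 and 0.99 ± 0.22 for groups 1 to 4. By cluster it was 1.01 ± 0.04 for HoxB, 1.84 ± 0.11 for HoxC, 1.75 ± 0.67 for HoxD and 0.87 ± 0.09 for the 8 genes of the remaining cluster. The mean over the 12 genes of groups 10 to 13 went the other way, with a change of -0.56 ± 0.38, and rose in 0 of 3 lines. Of these genes, 8 had too few counts to test.

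Within HoxB, Hoxb3, Hoxb7, Hoxb8 and Hoxb9 rose, the other members tested did not pass, and Hoxb13 had too few counts to test. Hoxb1 (chr11:96365752-96368256), the first gene of the cluster to be switched on, read 78.4, 47.9 and 41.7 CPM at day 2.5 and 68.5, 39.7 and 35.2 CPM at day 3 and did not pass (log2FC -0.22 ± 0.27, adjusted p = 0.60). Hoxb4 read 3.30, 4.14 and 4.59 CPM at day 2.5 and 6.75, 8.96 and 4.33 CPM at day 3 and did not pass either (log2FC 0.75 ± 0.32, adjusted p = 0.13), though it passed with GC offsets and the line as block (0.84, adjusted p = 0.048). Hoxb9 (chr11:96271457-96276595) read 11.8, 9.53 and 6.95 CPM at day 2.5 and 45.2, 41.6 and 36.3 CPM at day 3, a 4.38-fold rise in which the days did not overlap (log2FC 2.13 ± 0.20, adjusted p = 0.00032). On the log2 RPKM scale Hoxb9 went from 2.18, 1.87 and 1.41 to 4.14, 3.98 and 3.77, where its levels overlapped those of Hoxb1 (4.89, 4.06 and 3.88). Hoxb8 went from 1.01, 0.59 and 0.47 to 2.76, 2.50 and 2.05 on the same scale (log2FC of counts 1.76 ± 0.25, adjusted p = 0.0020), and Hoxb3 rose as well (log2FC of counts 1.58 ± 0.25, adjusted p = 0.0028). In HoxC, Hoxc6 rose from 0.275, 0.552 and 0.765 to 1.70, 3.91 and 3.60 CPM (log2FC 2.53 ± 0.56, adjusted p = 0.013). Hoxc8 rose from 0.495, 0.828 and 0.765 to 7.12, 3.85 and 4.63 CPM (log2FC 2.94 ± 0.42, adjusted p = 0.0019). In HoxD, Hoxd4 rose from 0.935, 1.52 and 0.412 to 6.93, 8.24 and 3.84 CPM (log2FC 2.85 ± 0.49, adjusted p = 0.0039) and Hoxd3 from 0.165, 0.414 and 0.177 to 2.16, 1.93 and 1.16 CPM (2.94 ± 0.66, adjusted p = 0.013), while Hoxd9 read 2.58, 2.35 and 0.883 CPM at day 2.5 and 3.03, 2.59 and 2.68 CPM at day 3 and did not pass (log2FC 0.54 ± 0.45, adjusted p = 0.43). Hoxd3 and Hoxd4 share exons on the same strand, and 14.7% of the 75-base stretches of the longest Hoxd3 transcript were its own, so the split of reads between the 2 is uncertain. Hoxb5os, an antisense transcript over Hoxb5, was among the steepest rises (3.57 ± 0.76, adjusted p = 0.010), and without strand its reads cannot be told apart from those of Hoxb5. Not every call held, and losses came (highest adjusted p given) without day 3 of line 2 or 3 for Hoxc6 (0.060), and without day 3 of line 1 or 2 for Hoxd3 (0.054). The count for groups 5 to 9 was 5 without day 3 of line 2, and that for groups 1 to 4 was 3 without day 3 of line 2.

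**Figure D3:**
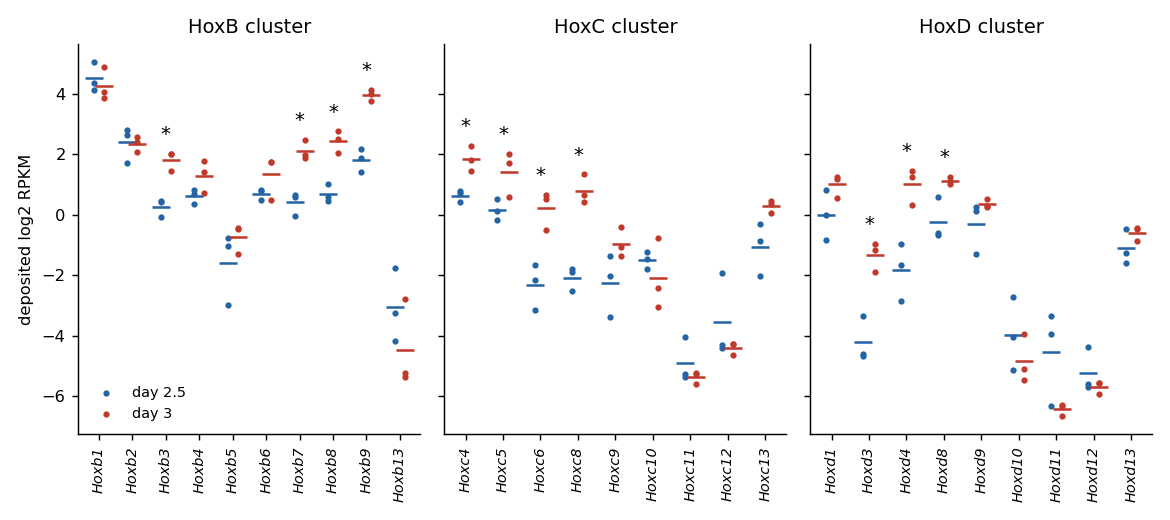
Deposited log2 RPKM (y axis) of the HoxB, HoxC and HoxD genes in order of group (x axis), in blue at day 2.5 and in red at day 3, with 1 dot per wt line and a dash at the mean. An asterisk marks an adjusted p under 0.05 in the count test, and all 11 marked genes are higher at day 3: Hoxb3, Hoxb7, Hoxb8, Hoxb9, Hoxc4, Hoxc5, Hoxc6, Hoxc8, Hoxd3, Hoxd4 and Hoxd8.

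Promoters of a falling and a rising Wnt-linked gene and of a rising Hox gene are shown because TCF/LEF factors carry the Wnt signal to DNA and Cdx factors bind in Hox clusters. They are the 250 bases before the start site, from RefSeq on GRCm38.p6, for 3 genes chosen after their values were seen. The letters searched on both strands were CTTTGAT, the core bound by TCF/LEF factors, and TTTATNG, which Cdx factors bind, and capitals mark each match. In these 3 promoters no marked match overlaps another. Sp5 (chr2:70474673-70474922, plus strand) holds 1 CTTTGAT, Msgn1 (chr12:11208949-11209198, minus strand) holds 1 on the other strand, and Hoxb8 (chr11:96281655-96281904, plus strand) holds 3 TTTATNG.
Sp5: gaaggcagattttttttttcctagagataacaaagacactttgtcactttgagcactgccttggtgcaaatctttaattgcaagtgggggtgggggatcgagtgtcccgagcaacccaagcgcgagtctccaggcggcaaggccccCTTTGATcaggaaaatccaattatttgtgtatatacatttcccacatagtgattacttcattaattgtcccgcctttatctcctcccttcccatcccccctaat
Msgn1: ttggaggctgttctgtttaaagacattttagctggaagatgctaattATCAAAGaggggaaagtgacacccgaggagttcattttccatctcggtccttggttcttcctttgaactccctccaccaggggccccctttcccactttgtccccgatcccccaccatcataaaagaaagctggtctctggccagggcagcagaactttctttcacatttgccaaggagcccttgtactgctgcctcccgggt
Hoxb8: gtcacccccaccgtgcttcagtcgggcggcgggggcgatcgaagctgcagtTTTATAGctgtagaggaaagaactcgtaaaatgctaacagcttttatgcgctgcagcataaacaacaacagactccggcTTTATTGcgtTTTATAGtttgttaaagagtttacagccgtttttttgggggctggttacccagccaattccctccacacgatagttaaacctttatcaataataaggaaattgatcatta
Of all 32851 promoters of this length in the table, 3.21% hold CTTTGAT and 9.81% hold TTTATNG. Among promoters of genes higher at day 3 the shares were 2.31% and 7.37%, among those of genes lower at day 3 2.81% and 6.49%, and among those of all genes tested 2.27% and 5.95%. The letters TGGGAA, which the Notch effector RBPJ binds, were also searched and are not marked. They were held by 21.6% of all promoters, 20.2% of those of genes tested, 17.9% of those of higher genes and 21.7% of those of lower genes. A match describes letters and is not evidence of binding.

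The Wnt lists are given against 8.99% of all genes called higher and 10.1% called lower. Of 13 Wnt ligands tested, 3 were higher (Wnt3a, Wnt5a and Wnt9a, the last at 1.70 ± 0.43 on the log2 scale) and 1 lower (Wnt8a), and with the line as block 5 higher and 3 lower. The lower count of the ligands was 0 without day 2.5 of line 1 or 2 or day 3 of line 2 or 3, 2 without day 3 of line 1 and 3 without day 2.5 of line 3. Wnt5a, a ligand of the posterior mesoderm, read 3.19, 6.35 and 1.65 CPM at day 2.5 and 16.5, 15.3 and 9.26 CPM at day 3 (log2FC 1.98 ± 0.42, adjusted p = 0.010). Wnt8a read 153, 128 and 100.4 CPM at day 2.5 and 97.9, 72.8 and 82.0 CPM at day 3 (log2FC -0.59 ± 0.16, adjusted p = 0.026). Among 16 receptors and co-receptors, 3 were higher (0 without day 2.5 of line 2 or day 3 of line 2 or 3) and 1 lower (0 without day 2.5 of line 1 or day 3 of line 2 or 3 and 3 without day 2.5 of line 3), with a median log2FC of 0.16, and with the line as block 5 higher and 3 lower. Of 20 Wnt targets and feedback genes tested, 1 was higher (Sp8) and 6 lower, with a median log2FC of -0.28. With the line as a block the counts were 3 and 10. Dkk4, a secreted Wnt inhibitor that is itself a Wnt target, read 105, 99.1 and 88.1 CPM at day 2.5 and 26.4, 16.4 and 12.6 CPM at day 3, a 5.24-fold fall in which the days did not overlap (log2FC -2.39 ± 0.23, adjusted p = 0.00032). Sp5, the zinc finger factor whose promoter is printed above, read 59.0, 45.8 and 37.5 CPM at day 2.5 and 30.5, 17.8 and 17.6 CPM at day 3 (log2FC -1.10 ± 0.23, adjusted p = 0.0096). Myc read 33.7, 28.9 and 25.4 CPM at day 2.5 and 9.46, 13.9 and 14.2 CPM at day 3 (log2FC -1.23 ± 0.20, adjusted p = 0.0032). Axin2, the negative feedback scaffold most often used as a readout of the pathway, read 197, 111 and 101 CPM at day 2.5 and 109, 78.6 and 54.6 CPM at day 3. It was lower in 3 of 3 lines but did not pass (log2FC -0.75 ± 0.27, adjusted p = 0.073), and it passed with the line as a block (-0.75 ± 0.11, adjusted p = 8.6e-05), without day 2.5 of line 3 (-0.94, adjusted p = 0.039) and without day 3 of line 1 (-1.02, adjusted p = 0.031). Axin2 also passed with no filter beyond 1 count (-0.76, adjusted p = 0.00039), in a fit of all 24 libraries (-0.76, adjusted p = 0.013) and in the other fits with the line as block. With GC offsets alone it did not pass (-0.59, adjusted p = 0.0996). Sp8 rose from 17.0, 13.8 and 13.7 to 24.7, 27.2 and 22.1 CPM (log2FC 0.73 ± 0.17, adjusted p = 0.014). The call was lost, with the highest adjusted p in parentheses, without day 3 of any line for Wnt9a (0.067), with counts thinned to the smallest total for Wnt9a (0.050), without day 2.5 of line 1 or 2 or day 3 of line 2 or 3 for Wnt8a (0.10), without day 2.5 of line 2 or day 3 of line 2 for Sp8 (0.063), in a fit of all 24 libraries for Sp8 (0.20), and without day 3 of line 3 for Sp5 (0.051).

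The same shares of all genes, 8.99% higher and 10.1% lower, are the background for the FGF lists. Of 13 FGF ligands and receptors tested, Fgf4, Fgf8 and Fgf15 were higher and Fgf5 was lower (5 higher and 1 lower with the line as block). Fgf4 read 6.6, 6.90 and 5.95 CPM at day 2.5 and 38.7, 21.1 and 27.5 CPM at day 3 (log2FC 2.18 ± 0.23, adjusted p = 0.00061). Fgf15 read 1.76, 0.690 and 0.942 CPM at day 2.5 and 12.3, 6.92 and 5.91 CPM at day 3 (log2FC 2.81 ± 0.42, adjusted p = 0.0022). Among 14 feedback genes and targets of the FGF/ERK cascade, 1 was higher (3 with the line as block) and 6 lower (median log2FC -0.37). Spry4, an inhibitor of receptor tyrosine kinase signalling, fell from 82.5, 79.1 and 66.9 to 37.6, 37.8 and 36.3 CPM (log2FC -1.03 ± 0.12, adjusted p = 0.00092). Spry2 fell from 89.8, 73.7 and 62.2 to 48.4, 50.5 and 39.0 CPM (log2FC -0.70 ± 0.16, adjusted p = 0.013). The immediate early factor Egr1 fell from 32.6, 26.0 and 18.3 to 9.37, 8.36 and 4.20 CPM (log2FC -1.79 ± 0.30, adjusted p = 0.0038). Dusp4, a phosphatase that acts on ERK, was the higher gene and rose from 71.8, 54.0 and 50.9 to 123, 102 and 97.6 CPM (log2FC 0.87 ± 0.15, adjusted p = 0.0038). Calls were lost (highest adjusted p given) without day 3 of line 3 for Spry2 (0.064). The lower count was 3 without day 3 of line 3.

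Among Notch pathway and segmentation clock genes, 7 of 16 tested were higher and 0 lower (0 by DESeq2 and 0 at an unadjusted p under 0.05), where 8.99% of all genes were higher and 10.1% lower, with a median log2FC of 0.94. Besides Dll1 and Dll3 the higher genes included Hes5, a Notch effector, which had 4 counts over the 3 day 2.5 libraries and read 1.15, 1.32 and 1.22 CPM at day 3 (log2FC 3.66 ± 0.79, adjusted p = 0.011). With so few counts at day 2.5, Hes5 entered the test through day 3 and could hardly have been called lower. The remaining 4 were Notch1, Hes1, Nrarp and Rbpj, named after their values were seen, with log2FCs of 1.26, 0.99, 1.19 and 0.45. The count was 4 without day 3 of line 1 or 3. A loss of the call (highest adjusted p given) was seen without day 3 of line 3 for Hes5 (0.052).

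BMP, Nodal and retinoic acid genes had the same background of 8.99% higher and 10.1% lower. Of 15 BMP genes tested, 6 were higher, among them Msx1, a homeobox target (1.45 ± 0.24 on the log2 scale), and the ligands Bmp6 (0.99 ± 0.28) and Bmp7 (0.98 ± 0.23), and 1, Bmper, was lower. That higher count was 1 without day 2.5 of line 2, 2 without day 3 of line 2 or 3 and 3 without day 2.5 of line 1. Of 17 genes of the Nodal and TGF-beta pathway, 2 were higher (1 without day 3 of line 2 or 3) and 4 lower (2 without day 3 of line 3). Gdf11, a TGF-beta family ligand of the tail bud, rose from 6.05, 7.32 and 6.77 to 15.5, 16.5 and 12.1 CPM (log2FC 1.14 ± 0.22, adjusted p = 0.0062). Tdgf1, the Nodal co-receptor, fell from 157, 165 and 162 to 56.3, 37.5 and 69.4 CPM (log2FC -1.56 ± 0.18, adjusted p = 0.00077). Gdf3 fell from 37.1, 24.4 and 20.3 to 15.1, 7.46 and 10.9 CPM (log2FC -1.28 ± 0.28, adjusted p = 0.011). Of 16 retinoic acid genes, Crabp2 was the only one called higher in the fit with all 6 libraries and no block (4 were with the line as block, and 3 without day 2.5 of line 1), and 4 were lower, led by the retinoid X receptor gene Rxrg, which fell from 16.9, 12.2 and 11.6 to 3.54, 1.62 and 2.68 CPM (log2FC -2.36 ± 0.31, adjusted p = 0.0013). That lower count was 1 without day 2.5 of line 2 or day 3 of line 2 or 3. Not every call held, and losses came (highest adjusted p given) without day 2.5 of line 1 or 2 or day 3 of line 2 or 3 for Bmp6 (0.14), without day 2.5 of line 2 or day 3 of line 1 for Bmp7 (0.060), and without day 3 of line 3 for Gdf3 (0.050).

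Of all genes, 8.99% were called higher and 10.1% lower. Of 12 core pluripotency genes tested, 1 was higher (Lin28b) and 6 lower, and the lower count was 6 in each fit that left out 1 library. Pou5f1, which encodes OCT4 (chr17:35506018-35510772), read 868, 702 and 533 CPM at day 2.5 and 277, 188 and 230.3 CPM at day 3, a 3.01-fold fall in which the days did not overlap (log2FC -1.59 ± 0.18, adjusted p = 0.00068). Utf1 fell from 116, 69.0 and 66.1 to 33.0, 16.7 and 33.5 CPM (log2FC -1.59 ± 0.27, adjusted p = 0.0039). Dppa2 fell from 39.3, 38.4 and 37.8 to 12.6, 9.63 and 12.8 CPM (log2FC -1.72 ± 0.16, adjusted p = 0.00027). L1td1, an RNA-binding protein of stem cells, fell from 384, 411 and 391 to 126, 136 and 153 CPM (log2FC -1.51 ± 0.10, adjusted p = 5.5e-05). Nanog read 70.4, 53.2 and 46.3 CPM at day 2.5 and 45.6, 23.3 and 59.5 CPM at day 3 and did not pass, and line 3 was higher at day 3 while lines 1 and 2 were lower (log2FC -0.40 ± 0.28, adjusted p = 0.33). It passed with GC offsets and the line as block (-0.54, adjusted p = 0.046). Of 17 naive pluripotency genes, 2 were higher (1 without day 2.5 of line 2 or day 3 of line 1) and 4 lower (1 without day 2.5 of line 2 or day 3 of line 3 and 2 without day 3 of line 2). Tdh, threonine dehydrogenase of mouse stem cells, fell from 182, 115 and 109.9 to 32.9, 19.3 and 23.9 CPM (log2FC -2.41 ± 0.23, adjusted p = 0.00032). Tfcp2l1, a transcription factor of the naive state, rose from 16.4, 12.7 and 14.3 to 30.7, 21.8 and 23.3 CPM (log2FC 0.80 ± 0.18, adjusted p = 0.014). The call was lost, with the highest adjusted p in parentheses, with GC offsets for Lin28b (0.090), and without day 2.5 of line 2 or day 3 of line 1 for Tfcp2l1 (0.057).

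Lists of chromatin genes are set against 8.99% higher and 10.1% lower among all genes. Of 11 DNA methylation genes, 0 were higher (0 by DESeq2 and 0 at an unadjusted p under 0.05) and 4 lower. The de novo methyltransferases fell, Dnmt3b from 461, 405 and 371 to 178, 138 and 169 CPM (log2FC -1.35 ± 0.12, adjusted p = 0.00026). Dnmt3a fell from 349.7, 269 and 230.0 to 140.1, 100.2 and 137 CPM (log2FC -1.16 ± 0.16, adjusted p = 0.0017). Trim28, the corepressor of zinc finger proteins, fell from 1163, 837 and 809 to 606, 490.2 and 534 CPM (log2FC -0.78 ± 0.14, adjusted p = 0.0048). Of 19 genes of the SMC family and its partners, 9 were higher and 0 lower (0 by DESeq2 and 0 at an unadjusted p under 0.05), with a median log2FC of 0.33. Smchd1 itself, of which the wt lines carry a floxed copy, read 124, 134 and 154 CPM at day 2.5 and 167, 207 and 207 CPM at day 3 (log2FC 0.50 ± 0.13, adjusted p = 0.020). Smc5 rose from 99.7, 111 and 119 to 168, 196 and 179.6 CPM (log2FC 0.73 ± 0.11, adjusted p = 0.0026). The cohesin loader Nipbl rose from 113, 114 and 121 to 175, 169 and 165 CPM (log2FC 0.55 ± 0.09, adjusted p = 0.0040). Calls were lost (highest adjusted p given) without day 2.5 of line 2 or day 3 of line 2 or 3 for Smchd1 (0.096). The SMC count was 3 without day 3 of line 3, 4 without day 3 of line 2 and 5 without day 2.5 of line 2. It was 5 with GC offsets. Of 23 Polycomb genes tested (5 higher and 5 lower with the line as block), 2 were higher (1 without day 2.5 of line 2 or 3 or day 3 of line 2 or 3) and 3 lower (1 without day 2.5 of line 2 or day 3 of line 3), with a median log2FC of -0.04. With GC offsets 3 of these genes were called in all.

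Lists of stress, metabolic and cell cycle genes are given against 8.99% of all genes called higher and 10.1% called lower. Of 11 hypoxia genes tested, 6 were higher and 0 lower (1 by DESeq2 and 2 at an unadjusted p under 0.05, median log2FC 0.53), and with the line as block 8 higher and 2 lower. Ndrg1 rose from 35.7, 45 and 54.7 to 89.4, 108 and 125 CPM (log2FC 1.26 ± 0.18, adjusted p = 0.0017). Ero1l, an oxidase of the endoplasmic reticulum, rose from 120.1, 180.3 and 210.4 to 272, 393 and 405 CPM (log2FC 1.07 ± 0.21, adjusted p = 0.0067). Of 18 glycolysis genes, 3 were higher (1 without day 2.5 of line 2 or day 3 of line 2 or 3) and 1 lower (2 with the line as block). The glucose transporter gene Slc2a3 rose 2.04-fold from 1843, 2064 and 2153 to 3904, 3995 and 4434 CPM (log2FC 1.03 ± 0.10, adjusted p = 0.00032). Pdk1, a kinase that inhibits pyruvate dehydrogenase, fell from 593, 545 and 485 to 319.6, 232 and 299 CPM (log2FC -0.93 ± 0.13, adjusted p = 0.0016). Of 15 genes of the integrated stress response, 1 was higher and 6 lower. Slc7a11, the cystine transporter, fell from 6.98, 7.46 and 7.30 to 1.93, 2.53 and 2.07 CPM (log2FC -1.73 ± 0.28, adjusted p = 0.0032). Chac1 fell from 63.2, 43.9 and 35.4 to 19.8, 16.3 and 24.4 CPM (log2FC -1.23 ± 0.22, adjusted p = 0.0045). Trib3 fell from 96.0, 62.3 and 56.4 to 34.0, 28.0 and 35.4 CPM (log2FC -1.14 ± 0.19, adjusted p = 0.0037). Of Trp53 and 14 of its targets, 1 was higher (4 with the line as block) and 5 lower, and the lower count was 5 in each fit that left out 1 library. Cdkn1a, which encodes p21, fell from 219.6, 183 and 165 to 109, 95.4 and 97.6 CPM (log2FC -0.90 ± 0.12, adjusted p = 0.0015). Phlda3 fell from 104, 103 and 106 to 67.0, 52.2 and 51.7 CPM (log2FC -0.86 ± 0.12, adjusted p = 0.0019). Trp53 fell from 194, 125 and 127 to 97.5, 73.4 and 80.5 CPM (log2FC -0.82 ± 0.17, adjusted p = 0.0093). Ccne1, cyclin E1, fell from 156, 132 and 122 to 76.1, 71.9 and 73.8 CPM (log2FC -0.88 ± 0.11, adjusted p = 0.0012). The retinoblastoma gene Rb1 rose from 11.5, 9.53 and 10.3 to 16.9, 24.2 and 23.4 CPM (log2FC 1.04 ± 0.20, adjusted p = 0.0064). Of 18 mitosis genes 4 were higher, among them Top2a (0.49 ± 0.10 on the log2 scale), and 1 was lower (0 without day 2.5 of line 1 or 2 or day 3 of line 1 or 2 or 3). The higher mitosis count was 2 without day 2.5 of line 2 or day 3 of line 2 or 3, and 7 with the line as block.

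Of 16 epithelial genes tested, 5 were higher and 1 lower, against 8.99% of all genes called higher and 10.1% called lower. Krt19, a simple epithelial keratin, rose from 46.4, 42.1 and 35.7 to 80.7, 101 and 78.5 CPM (log2FC 1.08 ± 0.15, adjusted p = 0.0016). Cldn4, a tight junction claudin, rose from 28.2, 21.3 and 24.6 to 53.7, 41.3 and 52.5 CPM (log2FC 0.99 ± 0.15, adjusted p = 0.0026). Of 14 mesenchymal genes 2 were higher (5 with the line as block, 1 with GC offsets, 1 without day 3 of line 1 or 2 and 5 without day 2.5 of line 1). Fn1, fibronectin, rose from 214, 168 and 170.3 to 405, 353 and 290.0 CPM (log2FC 0.93 ± 0.14, adjusted p = 0.0023), and the other was Zeb2 (0.89 ± 0.21, adjusted p = 0.016). Of 17 Eph and ephrin genes tested, 3 were higher (6 with the line as block, 1 without day 2.5 of line 2 or 3 or day 3 of line 1 or 2 and 5 without day 2.5 of line 1) and 3 lower. Epha1 and Epha2 fell from 436, 314 and 278 to 149, 111 and 128 CPM (-1.40 ± 0.16, adjusted p = 0.00081) and from 293, 199.5 and 149 to 81.8, 61.8 and 78.7 CPM (-1.52 ± 0.21, adjusted p = 0.0016) and Ephb2 rose from 19.96, 17.3 and 18.0 to 34.7, 33.4 and 34.2 CPM (0.89 ± 0.14, adjusted p = 0.0026). A loss of the call (highest adjusted p given) was seen without day 3 of line 1 or 2 for Zeb2 (0.058), and with GC offsets for Zeb2 (0.057).

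Genes of other lineages are given against the same shares. Of 14 spinal neural genes 2 were higher (Hes5 and Msx1) and 2 lower (Olig2 at -1.59 ± 0.46 and Tubb3 at -0.92 ± 0.27). The spinal neural higher count was 1 without day 3 of line 3, and the lower count 0 without day 2.5 of line 1 or day 3 of line 2 and 1 without day 2.5 of line 2 or 3 or day 3 of line 1 or 3. Of 10 lateral, cardiac and blood mesoderm genes 0 were higher (0 by DESeq2 and 1 at an unadjusted p under 0.05) and 2 lower (0 without day 2.5 of line 2 or day 3 of line 3 and 1 without day 2.5 of line 3 or day 3 of line 2), and 1 higher and 3 lower with the line as block. Of 4 anterior neural genes tested 0 were higher (0 by DESeq2 and 0 at an unadjusted p under 0.05) or lower (0 by DESeq2 and 2 at an unadjusted p under 0.05), and 0 higher and 2 lower with the line as block. Not every call held, and losses came (highest adjusted p given) without day 2.5 of any line or day 3 of line 1 or 2 for Olig2 (0.087), with GC offsets for Olig2 (0.052), without day 2.5 of line 1 or day 3 of line 2 or 3 for Tubb3 (0.13), and with counts thinned to the smallest total for Tubb3 (0.063). The spinal neural markers summed to 9.67 to 11.9 CPM at day 2.5 and 6.68 to 10.8 CPM at day 3. Of 14 endoderm genes 1, Trh, was called lower (3 higher and 2 lower with the line as block). Of 12 basement membrane genes 0 were higher (1 by DESeq2 and 1 at an unadjusted p under 0.05) or lower (0 by DESeq2 and 0 at an unadjusted p under 0.05), with 2 higher and 4 lower with the line as block and 1 called with GC offsets. The endoderm markers summed to 72.6 to 214 CPM at day 2.5 and 94.1 to 207 CPM at day 3, and the part of such cells in the other results was not tested.

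**Figure D4:**
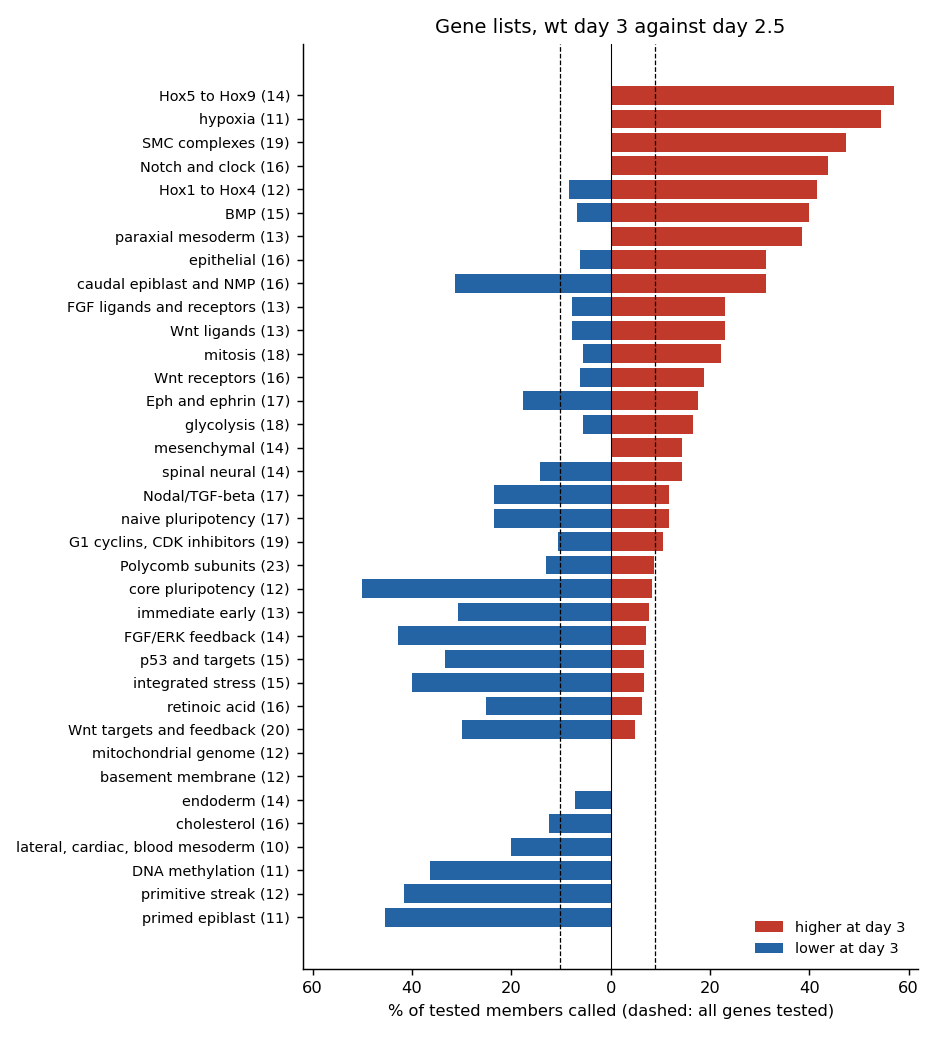
Share of tested members (x axis, in %) called higher at day 3 (red, to the right) or lower (blue, to the left) for each gene list with at least 10 tested members, whose number is in parentheses. The dashed lines are the shares over all 15292 genes tested, 8.99% higher and 10.1% lower, and the Hox5 to Hox9, hypoxia, SMC and Notch lists extend farthest to the right.

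The het lines, which share no library with the wt lines, took the same step. In het, 4710 of 15801 genes (29.8%) differed between day 2.5 and day 3, and 3014 did without day 3 of het line 3. Of the 2909 genes called in wt and tested in het, 2349 (80.7%) were also called in het, all in the same direction, and they were 50.7% of the 4636 het genes tested in wt. The log2 fold changes had a Pearson correlation of 0.75 and a Spearman correlation of 0.75 across 15118 genes, which are not independent replicates. The het log2 fold change was 5.49 ± 0.58, adjusted p = 0.00012, for Rspo3. It was 5.48 ± 0.68, adjusted p = 0.00025, for Msgn1, and 2.71 ± 0.58, adjusted p = 0.0049, for Tbx6. Hoxb9 rose in het (1.24 ± 0.19, adjusted p = 0.00068), and Dkk4 fell (-3.01 ± 0.23, adjusted p = 3.5e-05). Of all genes tested, 13.8% were higher in het and 8.99% in wt. Of 12 Hox genes of groups 1 to 4, 2 were higher in het (median log2FC 0.39) and 5 in wt (0.96). Of 14 of groups 5 to 9, 7 were higher in het (0.94) and 8 in wt (1.35). Of 16 epithelial genes 11 were higher in het and 5 in wt, and of 15 BMP genes 3 and 6. The changes in het of Cdx4 (0.38 ± 0.18, adjusted p = 0.13), Nkx1-2 (-0.62 ± 0.25, adjusted p = 0.079) and Smchd1 (0.20 ± 0.08, adjusted p = 0.069) did not pass, nor did that of Gm42372 (0.19 ± 0.37, adjusted p = 0.74). The interaction of genotype and day, which tests the difference between the steps, was called for 0 of 16486 genes by edgeR (0%), and 635 had p under 0.05 before adjustment. It was called for 0 by the DESeq2 Wald test, and for 23 with no filter on low counts. The median coefficient of variation between lines, as edgeR estimates it, was 0.175 in wt and 0.133 in het.

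**Figure D5:**
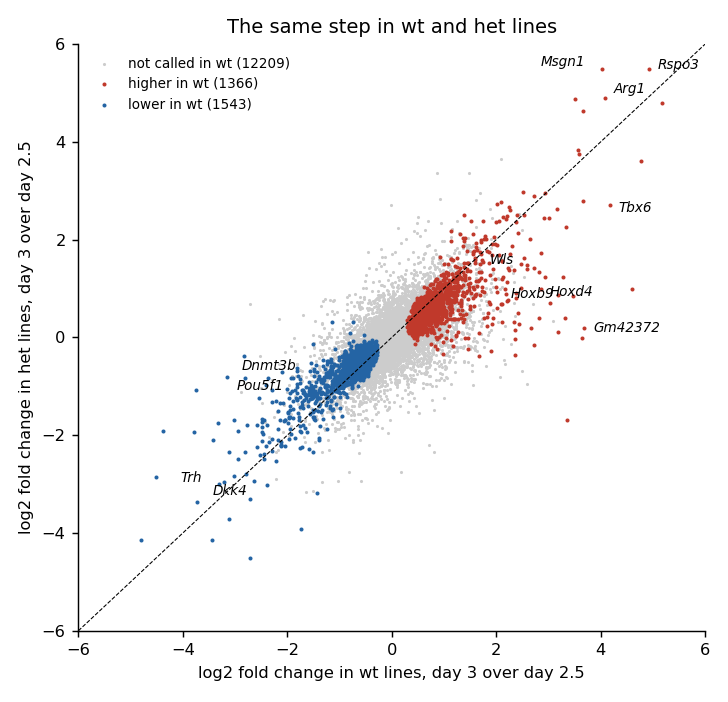
Log2 fold change of day 3 over day 2.5 in wt lines (x axis) and het lines (y axis), with 1 point per gene tested in both, coloured by the call in wt. The dashed diagonal marks equal change, 4 genes lie outside the axes, and called genes fall mostly in the lower left and upper right corners, with Gm42372 near 0 in het.

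The step also differed from the one before it. The change from day 2.5 to day 3 was tested against the change from day 2 to day 2.5, which shares the day 2.5 libraries, and 4359 of 16152 genes (27%) differed between the steps. The earlier step alone changed 4519 of 15540 genes (29.1%). Its log2 fold change had a Spearman correlation of 0.13 with GC content and -0.12 with transcript length, against -0.25 and 0.19 in the later step. No fit with GC offsets was run for the difference between the steps, so the part of GC content and length in it was not tested. Cdx2 read 1.58, 1.65 and 1.29 CPM at day 2 and rose before day 2.5 (second minus first step, log2 -6.73 ± 0.32, adjusted p = 2.1e-08). Cdx1 read 0.691, 0.639 and 0.895 CPM at day 2, before its peak and fall (difference -9.48 ± 0.47, adjusted p = 2.5e-08), and Dkk4 had 1 count over the 3 day 2 libraries before it rose and fell (adjusted p = 2.3e-09, with a fitted difference that depends on the prior count and is not given). The other direction was led by Fgf4, which read 177, 139.6 and 147 CPM at day 2, dropped by day 2.5 and rose again by day 3, to levels still under those of day 2 (difference 6.79 ± 0.39, adjusted p = 1.0e-07). Ccng2, cyclin G2, read 66.2, 54.4 and 69.2 CPM at day 2, 11.3, 10.9 and 11.4 CPM at day 2.5 and 29.4, 38.4 and 41.3 CPM at day 3 (difference 4.22 ± 0.31, adjusted p = 7.5e-07), and G2e3, a ubiquitin ligase gene, read 455, 474 and 358, then 90.4, 82.2 and 102 and then 137, 141 and 146 CPM (difference 2.87 ± 0.22, adjusted p = 1.2e-06). For Rspo3, which read 0, 0.266 and 0 CPM at day 2, the difference did not pass (2.07 ± 1.25, adjusted p = 0.24).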

How the data were processed

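Raw counts per gene were deposited by the authors as a table for 24 libraries, made from single-end poly(A) RNA-seq with a TruSeq stranded or non-stranded mRNA kit. Per the labels, the submitters' processing notes name bcl2fastq, Trim Galore 0.4.4, HISAT2 2.0.5 and GRCm38.p6, and the methods name SeqMonk for counting. Which libraries were stranded is not given in the sources used here, so genes that overlap on opposite strands cannot be told apart. The log2 RPKM values of Hox and marker genes were deposited by the authors and were used for Hox levels only, and 8 columns of the authors' group means were not used. The members and gene lists were chosen with earlier results of these data known.

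Counts were tested with edgeR 4.0.16 in R 4.3.3 by glmQLFit and glmQLFTest (two-sided), with TMM factors, filterByExpr by group and Benjamini-Hochberg adjustment, and called at an adjusted p under 0.05. The standard error was the absolute log2FC divided by the square root of F. Library totals at day 2.5 and day 3 gave floors of 3 counts as stated, and such floors cover counting error only. The 2-group design follows the methods, which give no block. The same cell line was sampled at both days, so line numbers pair the samples. Deviations from the group mean correlated at 0.379, 0.0849 and 0.147 within lines 1 to 3 and at -0.335 to 0.193 between lines. Only line 1 lay above the range between lines, so these correlations do not bear out the pairing for lines 2 and 3. GC content and length were those of the longest GENCODE vM21 transcript, and 35545 of 35591 identifiers matched. GC offsets came from a smooth curve (span 0.3) of each library's deviation on GC content.

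Genes were named by rule: a set of NMP, Wnt and Hox genes whatever their values, the 10 higher and 10 lower genes with the largest fold and the 5 with the smallest adjusted p (both without overlap of the days and, for the fold, with a mean of at least 50 counts at either day), up to 3 higher and 3 lower called members of each of 41 lists, and 3 of each sign from the other contrasts. Some genes that the rule takes in are not reported here. On simulated counts for 15292 genes with 200 changed, the test recovered 145 at 2-fold and 199 at 4-fold, with 9 other calls each. Alternatives were DESeq2 1.42.0, other scalings and filters, a fit of all 24 libraries, counts thinned to the smallest total, the line as block, each library left out, and GC offsets. RefSeq promoters were found for 98 of 147 named genes. Figures were drawn with matplotlib 3.10.9.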

Additional observations from a re-analysis of the deposited data

Results flagged for a closer look

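The change from day 2.5 to day 3 and the change from day 2 to day 2.5 in the wt lines differed from each other for 4359 of 16152 genes in a test of the difference itself, by edgeR's quasi-likelihood test with Benjamini-Hochberg adjustment over all genes tested, 2085 with the later change above the earlier and 2274 with it below. Both changes use the day 2.5 libraries, and no fit with GC offsets was run for this test. Leaving out 1 of the 9 libraries gave 3003 to 4249 genes. Cdx1, Cdx2 and Dkk4 were the lower-sided genes with the smallest adjusted p, and Fgf4, Ccng2 and G2e3 the higher-sided. No group had the 4 or more samples that a check for single outlying libraries needs.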

How the results depend on the processing

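The count of genes called between wt day 2.5 and day 3 stayed within 1.5 times of 2923 under 7 settings (DESeq2 size factors, library totals, no filter, a minimum mean of 50 counts, the Wald test of DESeq2, 1 fit of all 24 libraries and thinned counts), which gave 2677 to 4278. With the line as a replicate block it was 4687, with the block and GC offsets 4530, and with the block and without day 2.5 of line 2 3290. The last 2, like GC offsets alone (2955), were chosen after seeing the data. Leaving out 1 library gave 1281 to 2721, with the lowest counts without day 3 of line 3 or line 2 or day 2.5 of line 2, and the fits had 5 libraries. Of 2486 values of named genes under these settings, 2267 kept their direction and side of the threshold, 200 lost the call, 15 gained it and 4 changed direction. The latter were genes that did not pass: without day 2.5 of line 1 Hoxb1 (-0.22) was 0.10 and Cyp26a1 (0.30) was -0.013 (over the 6 libraries left out, -0.57 to 0.10 and -0.013 to 0.62), and Cdx2 (-0.19) was 0.0042 with GC offsets and 0.00016 with GC offsets and the block. The cause was not tested. Of the genes named by rule the block changed the call of T and Axin2 only, and it also called Hoxc13, which was named after its values were seen. The het count of 4710 ranged from 3014 to 4229 without 1 library. The genotype by day interaction gave 0 genes, 23 with no filter on low counts, and 0 to 1 without 1 library, the 1 without wt day 3 of line 3. The second step against the first step kept its count within 1.5 times of 4359 under the settings run for it, which did not include GC offsets or the block without a library (3003 to 5481). Counts of 0 or 1 called members in a gene list were 0 to 3 without 1 library. The mean Hox1 to Hox9 difference was 1.22 to 1.31 log2 RPKM. The smallest library, with 7.10 M counts, limits the genes near the floor, such as Tbx6 and Msgn1 at day 2.5.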

Other observations

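Of all genes, 8.99% were called higher and 10.1% lower. Primed epiblast genes, which mark the state after naive pluripotency, were called lower in 5 of 11 tested and higher in 0 (1 by DESeq2 and 1 at an unadjusted p under 0.05, and 1 with the line as block). Besides Fgf5, Dnmt3a and Dnmt3b they held Etv4 (log2FC -0.60 ± 0.14, adjusted p = 0.016) and Etv5 (-0.68 ± 0.12, adjusted p = 0.0053), ETS factors downstream of FGF that were named after their values were seen. The count was 3 without day 2.5 of line 2 or day 3 of line 3. Of 13 immediate early genes 1 was higher (2 with the line as block) and 4 lower. Ier2 fell from 106, 65.2 and 57.9 to 35.7, 27.8 and 25.8 CPM (log2FC -1.35 ± 0.22, adjusted p = 0.0031), and the higher gene was Klf6 (0.72 ± 0.21, adjusted p = 0.034). The call was lost, with the highest adjusted p in parentheses, without day 2.5 of line 1 or 2 or day 3 of line 2 or 3 for Klf6 (0.15). Of 19 G1 cyclins and CDK inhibitors 2 were higher (1 without day 2.5 of line 2 or day 3 of line 2 or 3) and 2 lower. Cdkn1b, which encodes p27, read 25.2, 24.6 and 34.4 CPM at day 2.5 and 39.9, 56.6 and 47.9 CPM at day 3 (log2FC 0.78 ± 0.18, adjusted p = 0.015), while Cdkn1a, which encodes p21, was among the lower genes. Calls were lost (highest adjusted p given) without day 2.5 of line 2 or day 3 of line 2 or 3 for Cdkn1b (0.076).

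The remaining lists had 0 to 2 called members each, against the same shares. Of 16 cholesterol synthesis genes 0 were higher (1 by DESeq2 and 2 at an unadjusted p under 0.05) and 2 lower (0 without day 3 of line 2 or 3), among them Mvk (-0.60 ± 0.15 on the log2 scale), and with the line as block 2 higher and 2 lower. A loss of the call (highest adjusted p given) was seen without day 3 of line 2 or 3 for Mvk (0.085). Of 9 heat shock genes 1 was lower, Hspd1 (-0.29 ± 0.08, adjusted p = 0.038), and 0 higher (0 by DESeq2 and 0 at an unadjusted p under 0.05). With the line as block 0 were higher and 3 lower, 3 were called with GC offsets, and the lower count was 0 without day 2.5 of line 2 or 3 or day 3 of line 1 or 2 or 3 and 3 without day 2.5 of line 1. Not every call held, and losses came (highest adjusted p given) without day 2.5 of line 2 or 3 or day 3 of any line for Hspd1 (0.11), and with the line as block and without day 2.5 of line 2 for Hspd1 (0.063). Of 12 genes of the mitochondrial genome 0 were higher (0 by DESeq2 and 1 at an unadjusted p under 0.05) or lower (0 by DESeq2 and 0 at an unadjusted p under 0.05), with a median log2FC of 0.35. With the line as block 5 were higher and 1 lower, and 1 was called with GC offsets. Of 6 genes of the 2-cell-like state 0 were higher (0 by DESeq2 and 0 at an unadjusted p under 0.05) or lower (0 by DESeq2 and 1 at an unadjusted p under 0.05), and of 4 neural crest and surface ectoderm genes 0 were higher (1 by DESeq2 and 2 at an unadjusted p under 0.05) or lower (0 by DESeq2 and 0 at an unadjusted p under 0.05), with 1 higher with the line as block and 1 called with GC offsets.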
